A study of Homo sapiens with 8 samples.

Results

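The replication-dependent histone genes were examined as a set: the protein-coding RefSeq genes on chromosomes 1 and 6 whose symbols begin with H1-, H2AC, H2BC, H3C or H4C. The rule found 68 genes among 19126 autosomal protein-coding genes, 13 on chromosome 1 and 55 on chromosome 6. Of these, 60 had enough labelled DNA for a replication time, all 55 on chromosome 6 and 5 on chromosome 1.

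These genes encode the linker histone H1 and the core histones H2A, H2B, H3 and H4 that package newly made DNA. They are transcribed during S phase, typically from intronless genes whose mRNAs end in a stem-loop rather than a poly(A) tail. They are gathered at histone locus bodies with the factor NPAT. Some members have longer annotated spans in RefSeq, up to 29682 bases for H2BC18. Histone synthesis is coupled to DNA synthesis, so these genes are transcribed while the genome that holds them is being copied.

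Newly made DNA was measured by scEdU-seq, in which single cells take up the thymidine analogue EdU for a short pulse and the labelled fragments are captured and sequenced. The cells were RPE-1 hTERT, a retinal pigment epithelial line immortalised with telomerase, either wild type (WT) or with CFAP20 knocked out (CFAP20-KO), and the only treatment was a pulse of 10 µM EdU for 15 min before ethanol fixation and sorting. Each of 8 plates held both genotypes by its title, while the genotype field of the labels named CFAP20-KO for every plate, so the genotype of each cell was read from the data. Whether the KO line was 1 clone, and whether plates came from separate cultures, is not stated in the labels, so p-values measure the spread between plates only.

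In all, 1290 WT and 1140 KO cells held at least 1000 labelled autosomal molecules each, 23696348 molecules together, of which 39.0% came from KO cells. Plates were not copies of one another, since counts compared over 28 pairs gave a chi-squared of 5.00 to 17.4 per degree of freedom. Cells were ranked along S phase from 0 (early) to 1 (late), and the timing of a region is the average rank of the cells, each counted by how many molecules it has there. For a gene, the region is a window of 50 kb centred on it, which held a median of 363 molecules over the 15894 gene windows measured. The median timing of those windows was 0.248 ± 0.0381 (SD, n = 8 plates).

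Members whose starts lay within 250 kb of the next were joined into blocks, which gave 6. On chromosome 1 they were the block from H2BC18 to H2AC21 (11 genes, chr1:149782689-149887965) and the pair H2AC25 and H2BC26. On chromosome 6 they were the pair H2AC1 and H2BC1 (chr6:25726063-25727345), the block from H1-1 to H4C8 (32 genes, chr6:26017032-26285534), the block from H2BC11 to H2AC12 (5 genes, chr6:27132316-27147562) and the block from H2BC13 to H2BC17 (16 genes, chr6:27807479-27893891), all in GRCh38. The window of H2AC25 and H2BC26 held 0 molecules, so that pair is not analysed here.

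One H2B promoter from each of the 5 measured blocks is given, to show what a promoter of these genes looks like. Each was chosen as the first H2B promoter of its block by coordinate that holds the octamer, so its presence in all 5 is fixed by the choice and says nothing of the blocks. TATAAA was in those of H2BC1, H2BC3 and H2BC11. Each is the 150 bases before the transcription start in RefSeq (GRCh38.p14), 5′ to 3′ on the gene's strand. The octamer ATTTGCAT, the CCAAT box and the TATA box TATAAA are in capitals where they occur on the printed strand, and matches on the other strand are not marked.
H2BC18, chr1:149812371-149812520, minus strand: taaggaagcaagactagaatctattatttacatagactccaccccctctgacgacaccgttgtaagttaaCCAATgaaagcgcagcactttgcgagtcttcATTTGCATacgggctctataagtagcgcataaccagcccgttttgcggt
H2BC1, chr6:25726627-25726776, plus strand: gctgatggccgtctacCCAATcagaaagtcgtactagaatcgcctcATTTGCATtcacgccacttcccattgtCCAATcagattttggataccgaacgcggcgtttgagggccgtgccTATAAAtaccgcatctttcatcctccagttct
H2BC3, chr6:26043714-26043863, minus strand: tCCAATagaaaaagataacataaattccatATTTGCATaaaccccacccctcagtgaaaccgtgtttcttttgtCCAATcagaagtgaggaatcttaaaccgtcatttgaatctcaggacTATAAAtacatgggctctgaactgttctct
H2BC11, chr6:27132796-27132945, minus strand: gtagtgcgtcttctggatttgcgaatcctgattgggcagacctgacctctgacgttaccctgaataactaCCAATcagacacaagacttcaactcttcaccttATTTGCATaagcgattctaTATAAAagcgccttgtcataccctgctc
H2BC14, chr6:27814872-27815021, plus strand: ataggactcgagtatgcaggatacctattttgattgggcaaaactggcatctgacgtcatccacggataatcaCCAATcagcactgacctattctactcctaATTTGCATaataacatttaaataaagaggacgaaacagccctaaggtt

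The octamer, the site of the POU factor OCT1 (POU2F1) in H2B promoters, began 49 bases before the start in H2BC18, 47 in H2BC11 and 48 in H2BC14, but 104 in H2BC1 and 120 in H2BC3. A promoter entry was found for 63 of the 68 members. On either strand of the 300 bases from 250 before to 50 after the start, ATTTGCAT was in 14 of 18 H2B and 11 of 16 H2A promoters. It was in 0 of 6 H1, 0 of 11 H3 and 0 of 12 H4 promoters, and in 1.82% of all 27305 promoters of the table. CCAAT was in 54 of 63 members against 35.6% of all promoters, with H4 lowest at 3 of 12. TATAAA was in 42 of 63 members against 12.1% of all. Several H2A and H2B genes lie within 250 bases of each other, such as H2BC11 and H2AC11. Their promoter stretches can overlap, and 1 site can then count for both genes. The H2A and H2B counts, and those over all members, are therefore not counts of separate sites. These matches describe letters, not bound sites, and none of the 3 motifs contains another.

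The chromosome 6 blocks replicated late and the chromosome 1 block in between. The H1-1 to H4C8 block, which holds all H1 genes but H1-5, had a timing of 0.628 at its lowest plate, 0.677 at the median and 0.719 at the highest, with a mean of 0.675 ± 0.0287 (SD, n = 8). The H2BC13 to H2BC17 block was the latest, at 0.678, 0.726 and 0.794 (mean 0.728 ± 0.0325). The H2BC11 to H2AC12 block lay at 0.655, 0.711 and 0.774 (mean 0.713 ± 0.0333). The testis-type pair H2AC1 and H2BC1 lay at 0.582, 0.648 and 0.687 (mean 0.641 ± 0.0340). The H2BC18 to H2AC21 block on chromosome 1 lay at 0.311, 0.380 and 0.519 (mean 0.394 ± 0.0673), so its highest plate was still below the lowest plate of every chromosome 6 block.

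**Figure D1:**
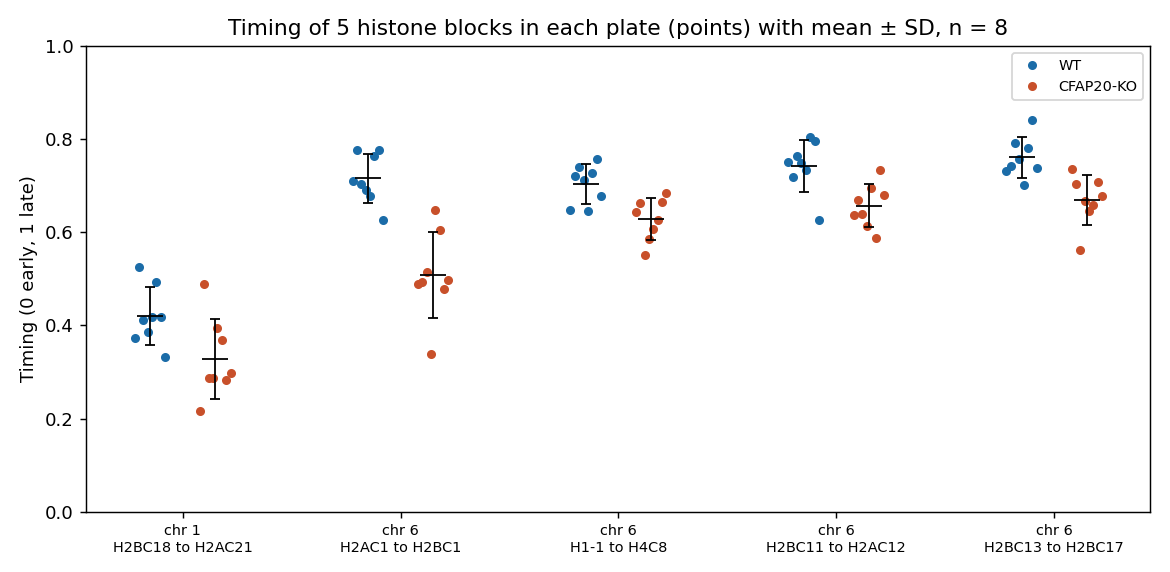
Timing (vertical axis, 0 early to 1 late) of the 5 measured histone blocks in WT (blue) and CFAP20-KO (orange) cells, 1 point per plate, with the mean and SD of 8 plates in black. The chromosome 1 block lies below the 4 chromosome 6 blocks, and in each block the KO mean is below the WT mean.

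Within plates, each block was later than the median gene window. Earlier results of these same data that gave histone genes as late were known before this test, so its p-values are no independent support. The difference was 0.147 for the chromosome 1 block, 0.394 for H2AC1 and H2BC1, 0.428 for H1-1 to H4C8, 0.466 for H2BC11 to H2AC12 and 0.481 for H2BC13 to H2BC17, each above 0 in 8 of 8 plates (exact two-sided sign-flip permutation, adjusted p = 0.00781, the smallest that 8 plates allow). The chromosome 1 difference fell to 0.0161 with windows of 20 kb (exact permutation, adjusted p = 0.578). As a position among genes, 75.0% of gene windows were earlier than the chromosome 1 block, against 89.5% for H2AC1 and H2BC1, 91.0% for H1-1 to H4C8, 92.7% for H2BC11 to H2AC12 and 93.4% for H2BC13 to H2BC17.

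The blocks were compared in 10 pairs. The chromosome 1 block was earlier than each chromosome 6 block, by 0.247 to 0.334, in 8 of 8 plates (exact permutation, adjusted p = 0.0112 for each). On chromosome 6 the H2BC13 block was later than the H1-1 block by 0.0529 ± 0.0202 and later than the H2AC1 pair by 0.0869 ± 0.0405 (n = 8 plates, exact permutation, adjusted p = 0.0112 for both). The H2BC11 block was later than the H2AC1 pair by 0.0719 ± 0.0233 (exact permutation, adjusted p = 0.0112). With equal weight per cell the gaps of the H2BC13 block from the H1-1 block and of the H2BC11 block from the H2AC1 pair were 0.0298 and 0.0553 and no longer passed (exact permutation, adjusted p = 0.0781 for both), and the latter did not pass in 200 kb windows either (0.0439, adjusted p = 0.0684). The difference of the H2BC11 from the H1-1 block, 0.0379 ± 0.0355 (exact permutation, adjusted p = 0.0293), was lost when plate 1, 3, 4, 6 or 7 was left out (mean then 0.0349 to 0.0384, adjusted p = 0.0586) and was -0.0028 over cells of at least 5000 molecules. Neighbours in the order that did not differ beyond the spread of plates were H2AC1 and H1-1 (0.0340 ± 0.0430, exact permutation, adjusted p = 0.0781) and H2BC11 and H2BC13 (0.0150 ± 0.0263, adjusted p = 0.148). Both of these gaps passed the test over cells of at least 5000 molecules (0.0277 and 0.0247) and without plate 5 (0.0438 and 0.0223), while in 200 kb windows the first of them turned to -0.0094.

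The H1 genes encode the linker histones, which bind DNA between nucleosomes. Their 50 kb windows were at 0.676 ± 0.0520 for H1-1, 0.777 ± 0.0438 for H1-2, 0.608 ± 0.0341 for H1-3, 0.757 ± 0.0537 for H1-4, 0.761 ± 0.0461 for H1-5 and 0.794 ± 0.0415 for the testis-specific H1-6 (SD, n = 8 plates). H1-3 was the earliest of the 6 and lies toward the right end of its block. By family on chromosome 6, median timing was 0.759 for H1 (6 genes), 0.709 for H2A (12), 0.715 for H2B (15), 0.694 for H3 (10) and 0.703 for H4 (12). The range within a family was wide, from 0.474 (H4C8) to 0.797 (H4C3) in H4, from 0.510 (H2BC10) to 0.785 (H2BC4) in H2B, from 0.517 (H3C8) to 0.751 (H3C11) in H3 and from 0.641 (H2AC1) to 0.788 (H2AC6) in H2A. Both extremes of H4 and both of H2B lay in the H1-1 block. Windows of neighbouring members overlap and share molecules, so members are not independent points.

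The H1-1 block was not uniform. Its latest windows were those of H4C3 (0.797 ± 0.0374), a histone H4 gene, and of H1-6, and its earliest was that of H4C8, the last gene and the earliest member on chromosome 6, at 0.474 ± 0.0516. H4C8 was earlier than H1-1, 268 kb away, by 0.0314 to 0.283 in 8 of 8 plates, a mean last-minus-first difference of -0.202 ± 0.0821 (exact permutation, adjusted p = 0.0117). On chromosome 1 the H2A gene H2AC21 (0.330 ± 0.0672) was earlier than the H2B gene H2BC18 (0.473 ± 0.0679), with a difference of -0.143 ± 0.0337 over 90.2 kb, also in 8 of 8 plates (exact permutation, adjusted p = 0.0117; -0.0598 and adjusted p = 0.0586 with equal weight per cell). H2BC18 was the latest and H2AC20 (0.330) the earliest member measured on chromosome 1. In the H2BC13 block, H2BC17 (0.741) minus H2BC13 (0.694) was 0.0472 ± 0.0673 and later in 6 of 8 plates (exact permutation, adjusted p = 0.0859). Within that block H2AC13 was earliest at 0.693 and H2AC16 latest at 0.762. In the H2BC11 block H2BC11 was latest at 0.727 and H2AC12 earliest at 0.705. The comparison of last with first genes was chosen after the values had been seen. It was made only for the blocks that start at H2BC18, H1-1 and H2BC13, so its p-values are descriptive.

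In 20 kb bins across chr6:25500001-29000000 the H1-1 and H2BC13 blocks held the latest bins of their surroundings. Of 175 bins, 23 held 0 molecules and 133 had a timing. The 19 measured bins that held a member had a median timing of 0.698, and the 114 without had 0.565, which describes neighbouring bins and carries no test. The latest bin near the H1-1 block, chr6:26100001-26120000, held H4C3, H1-6 and H2BC4 and was at 0.802 ± 0.0534. The latest near the H2BC13 block, chr6:27860001-27880000, held H2AC16, H1-5, H3C11 and H4C13 and was at 0.783 ± 0.0818. For the H2BC11 block the latest bin, chr6:26960001-26980000 at 0.775 ± 0.0503, lay outside the block and held no member. Near the H2AC1 pair the latest bin, chr6:25940001-25960000 at 0.672 ± 0.0721, also held no member, and the bin of the pair was at 0.655.

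**Figure D2:**
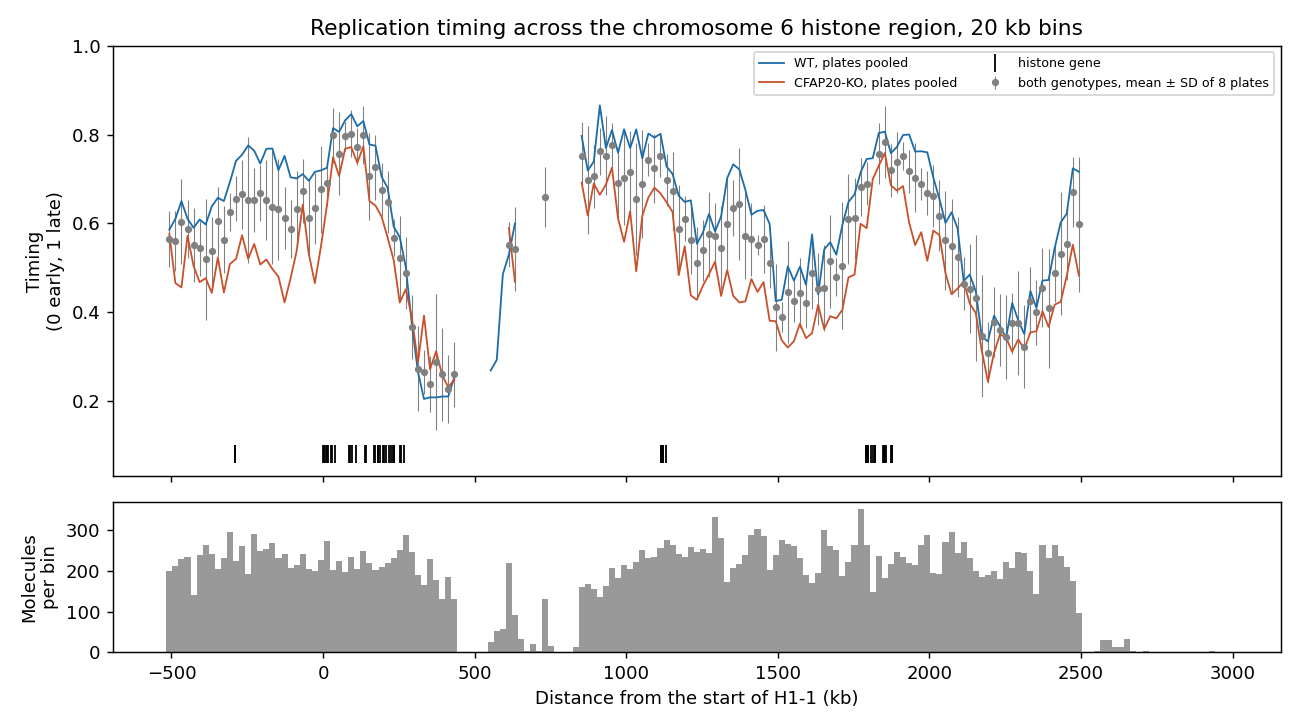
Upper panel: timing of 20 kb bins of the chromosome 6 histone region against distance from the start of H1-1 in kb, as the mean and SD of 8 plates (grey) and with plates pooled in WT (blue) and CFAP20-KO (orange); black ticks mark histone genes. Lower panel: molecules per bin. The crests near the H1-1 and H2BC13 blocks reach 0.802 and 0.783, gaps in the line are bins with too few molecules, and KO lies below WT over most of the region.

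The right edge of the H1-1 block was the steepest fall in the region. Over the 3 bins before position 26300000 timing averaged 0.525, and over the 3 bins after it 0.301. The next protein-coding gene, BTN3A2, a butyrophilin of the immunoglobulin superfamily, was at 0.248 ± 0.0512, and BTN3A3 in the same family was the earliest gene window of the region at 0.243 ± 0.0613. On the left, TRIM38 was at 0.647 ± 0.0576, beside H1-1 at 0.676. HFE, the iron regulator mutated in haemochromatosis, lies between members of the block and was the latest non-member gene at 0.789 ± 0.0430. The window of HFE lies wholly within the windows of the block, so its value largely repeats theirs. SCGN and SLC17A4 on either side of the H2AC1 pair were at 0.582 and 0.662. The nearest genes of the H2BC11 block, ZNF322 (485 kb away) and PRSS16 (105 kb), were at 0.559 and 0.533. Those of the H2BC13 block, ZNF184 (369 kb) and OR2B2 (18.1 kb), were at 0.563 and 0.742. On chromosome 1, BOLA1 to the right of the block was at 0.297, and FCGR1A, which lies within the span of H2BC18 and shares its molecules, at 0.478. The windows of TRIM38, SLC17A4, OR2B2 and BOLA1, and the edge of that of SCGN, also overlap the windows of the block beside them.

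Set against the 250 kb on either side, the 3 larger chromosome 6 blocks were locally late. The H2BC13 block was later than its flanks by 0.139 at the lowest plate, 0.188 at the median and 0.214 at the highest (mean 0.183 ± 0.0229). Its left flank was at 0.487 and its right flank at 0.602. The H1-1 block was later by 0.0979, 0.156 and 0.223 (mean 0.157 ± 0.0459). It was itself at 0.675, with a right flank at 0.258. Its left flank, the same stretch that lies to the right of the H2AC1 pair, was at 0.644. The block was not later than this left flank in every plate. The H2BC11 block was later by 0.0283, 0.0679 and 0.138 (mean 0.0717 ± 0.0381). It was itself at 0.713, with a left flank at 0.721 and a right flank at 0.578, so on average it was later than its right flank only. These 3 differences were above 0 in 8 of 8 plates (exact permutation, adjusted p = 0.0130). The H2AC1 pair (0.0397 ± 0.0415, exact permutation, adjusted p = 0.0586) and the chromosome 1 block (0.0486 ± 0.0827, adjusted p = 0.148) did not pass, but both did with flanks of 500 kb (0.133 and 0.106) and in cells of at least 5000 molecules (0.0296 and 0.0486). Over flanks of 100 and 500 kb and cells of at least 5000 molecules, the difference ran from 0.0996 to 0.219 for the H2BC13 block, 0.103 to 0.213 for the H1-1 block and 0.0272 to 0.133 for the H2BC11 block, and passed in each. On chromosome 1 the block lay on a slope, between a left flank at 0.570 and a right flank at 0.213.

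Gene by gene, 54 of 60 member windows were later than their flanks, where 41.6% of 15694 gene windows were, and 41 of 60 exceeded 0.0504, the 90th percentile of all windows, passed by 10.0%. The median local difference was 0.102 over members and -0.0078 over all windows. The comparison with flanks was chosen after the values had been seen, and members share molecules and flanks, so the counts carry no test.

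**Figure D3:**
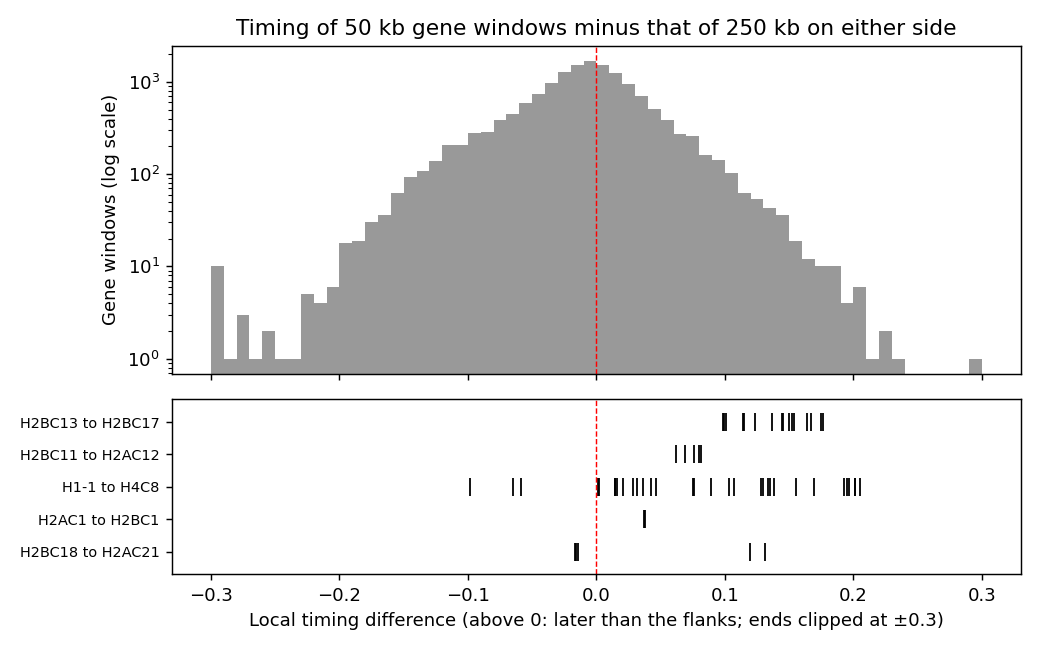
Timing of a 50 kb gene window minus that of the 250 kb on either side, horizontal axis. Upper panel: number of gene windows per 0.01 on a log scale, over 15694 windows; lower panel: 1 tick per histone gene, by block. Most histone genes lie to the right of 0, those of the H2BC13 block all above the 90th percentile at 0.0504.

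The number of molecules differed between the chromosomes as well. The chromosome 1 block had 6.78 molecules per kb, 0.933 times the median gene window, against 12.4 for the H2AC1 pair, 11.4 for H1-1 to H4C8, 13.4 for H2BC11 to H2AC12 and 11.6 for H2BC13 to H2BC17, 1.57 to 1.84 times the median window. The measured 20 kb bins of the chromosome 6 region, most of them without a member, held a median of 230 molecules. The level on chromosome 6 is thus not particular to the histone blocks. Within the chromosome 1 block, 6 windows around the near-identical gene copies H4C14, H3C14, H2AC18, H4C15, H2AC19 and H3C15 held 168 to 250 molecules and missed the minimum of 10 in some plate. The bodies of H4C14, H3C14, H2AC18, H2AC19 and H3C15 held 0, as did 16 member gene bodies in all. The labels do not say how reads from such copies were placed, so the level of the chromosome 1 block is uncertain. In the H1-1 block gene bodies held 11.2 molecules per kb and the DNA between them 11.5. A body is the whole annotated span, which is 10757 bases for H2BC4 and 13229 for H2BC5. In the H2BC13 block gene bodies held 8.56 and the DNA between them 11.8, from 67 molecules in gene bodies.

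Along S phase the blocks differed in when they gained label. With cells split into 10 deciles of the order, each of 243 cells, the H1-1 block had 0.0920 ± 0.0167 molecules per kb per 1000000 autosomal molecules in decile 1, 0.533 ± 0.201 in decile 3, a maximum of 0.819 ± 0.164 in decile 9 and 0.486 ± 0.132 in decile 10. The H2BC13 block rose from 0.0537 ± 0.0404 in decile 1 to 1.00 ± 0.218 in decile 9, and the H2BC11 block from 0.0475 ± 0.0462 to 1.44 ± 0.583 in decile 7 and 1.25 ± 0.239 in decile 9. For the H1-1 block decile 8, at 0.786 ± 0.149, was close to its maximum. Label on chromosome 1 had its highest mean in decile 3 at 0.588 ± 0.299, from 99 molecules, and was lowest in decile 10 at 0.0689 ± 0.0587. Its neighbours, decile 2 at 0.441 ± 0.164 and decile 4 at 0.448 ± 0.206, lay within that spread of plates. The H2AC1 pair had a broad course, with 0.972 ± 0.898 in decile 4 and 0.861 ± 0.314 in decile 9, which do not differ beyond the spread of plates. Cells of deciles 3 to 8 held a median of 1592 to 1844 molecules, against 15549 in decile 1 and 15420 in decile 9, so the middle of the order is measured less precisely.

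**Figure D4:**
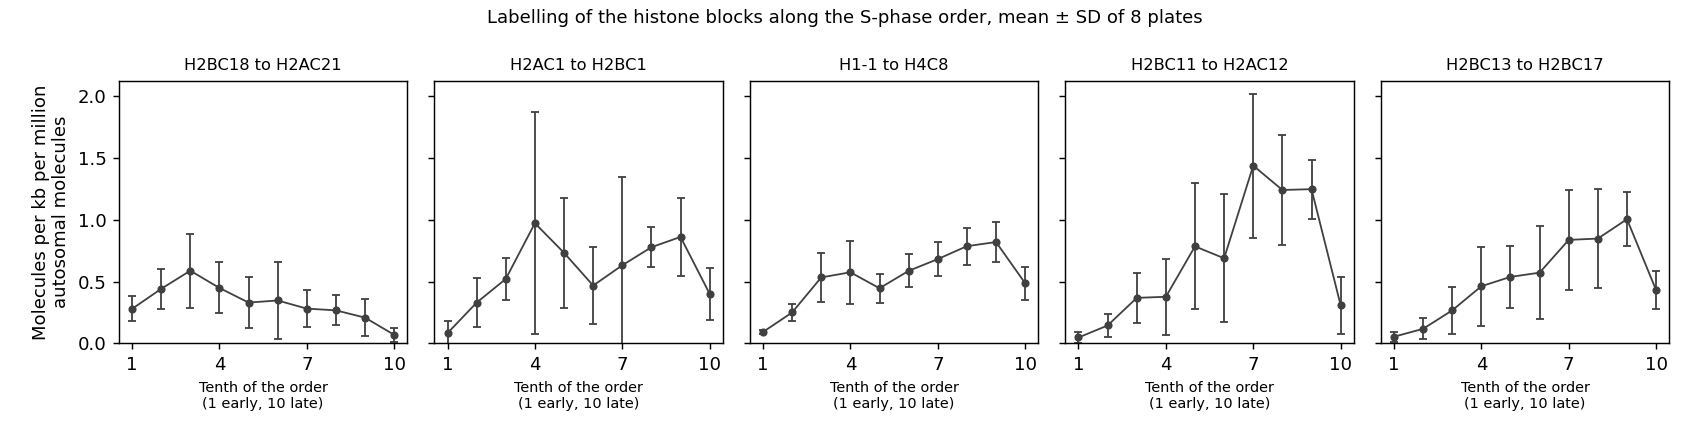
Labelling of each histone block (panels) against decile of the S-phase order, 1 early to 10 late, in molecules per kb per 1000000 autosomal molecules; points and bars are the mean and SD of 8 plates. The highest mean lies in decile 3 for the chromosome 1 block (0.588) and in decile 9 for the H1-1 and H2BC13 blocks (0.819 and 1.00).

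The ranks of single molecules had wide tails in each block. The median rank of a molecule was 0.297 in the chromosome 1 block, 0.761 in the H2AC1 pair, 0.800 in the H1-1 block, 0.799 in the H2BC11 block and 0.820 in the H2BC13 block. From the 10th to the 90th percentile, molecules spanned ranks 0.0720 to 0.854 on chromosome 1, 0.185 to 0.937 in the H1-1 block, 0.337 to 0.909 in the H2BC11 block and 0.349 to 0.930 in the H2BC13 block.

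In KO cells the histone blocks lay earlier in the order than in WT cells. For the H1-1 block timing was 0.646, 0.716 and 0.758 in WT (lowest, median and highest plate) and 0.550, 0.634 and 0.684 in KO. For the H2BC13 block it was 0.702, 0.749 and 0.841 in WT and 0.561, 0.672 and 0.735 in KO, and for the H2BC11 block 0.626, 0.750 and 0.804 in WT and 0.588, 0.655 and 0.733 in KO. The ranges of WT and KO overlapped in each of these 3 blocks. The H2AC1 pair was at 0.627, 0.707 and 0.777 in WT and 0.338, 0.495 and 0.648 in KO, and the chromosome 1 block at 0.332, 0.414 and 0.525 in WT and 0.216, 0.293 and 0.490 in KO.

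Each library was centred on the median of its gene windows with at least 10 molecules in all 16 libraries of plate and genotype. The medians of these 3900 windows averaged 0.431 in WT and 0.439 in KO. After centring, KO minus WT within plates was -0.0836 ± 0.0497 for the H1-1 block (adjusted p = 0.0195, below 0 in 7 of 8 plates, exact permutation). It was -0.0994 ± 0.0467 for the H2BC13 block, -0.216 ± 0.128 for the H2AC1 pair and -0.0997 ± 0.0684 for the chromosome 1 block, each below 0 in 8 of 8 plates (exact permutation, adjusted p = 0.0130). For the H2BC11 block it was -0.0940 ± 0.0794 (exact permutation, adjusted p = 0.0313), which was lost without plate 1, 2, 4, 6 or 7 (-0.0831, -0.0869, -0.0921, -0.0802 and -0.0924, adjusted p = 0.0625). With each cell given equal weight instead of weight by its molecules, the H2AC1 pair alone kept an adjusted p under 0.05, and the differences were -0.0573 for chromosome 1, -0.0302 for the H1-1 block, -0.0029 for the H2BC11 block and -0.0502 for the H2BC13 block (exact permutation, adjusted p = 0.0586, 0.0781, 0.906 and 0.313). In 20 kb windows the H2AC1 pair (-0.186) and the H2BC11 block (-0.0891) did not pass (exact permutation, adjusted p = 0.0781 and 0.117).

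Along the order, the late blocks of KO cells had less label than those of WT cells in decile 10 and more in decile 7, as a description with no test. In decile 10, with plates pooled, the H1-1 block had 0.696 molecules per kb per 1000000 in WT and 0.197 in KO, the H2BC13 block 0.674 and 0.119, the H2BC11 block 0.477 and 0.0935 and the H2AC1 pair 0.756 and 0.0398. In decile 7 the values were 0.651 in WT and 0.760 in KO for the H1-1 block, 0.686 and 1.25 for the H2BC13 block and 0.607 and 2.14 for the H2BC11 block. The H1-1 block was higher in KO in each decile before decile 10, with 0.760 in WT and 0.917 in KO in decile 9. In that decile KO was lower for the other late blocks, with 1.06 and 0.859 for H2BC13, 1.51 and 0.792 for H2BC11 and 0.932 and 0.759 for the H2AC1 pair. KO cells made up 129 of the 243 cells of decile 10 and 92 of those of decile 1, and decile 10 held 21.4% of KO and 18.6% of WT molecules. The part of this uneven placing of KO cells in the timing difference was not tested.

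**Figure D5:**
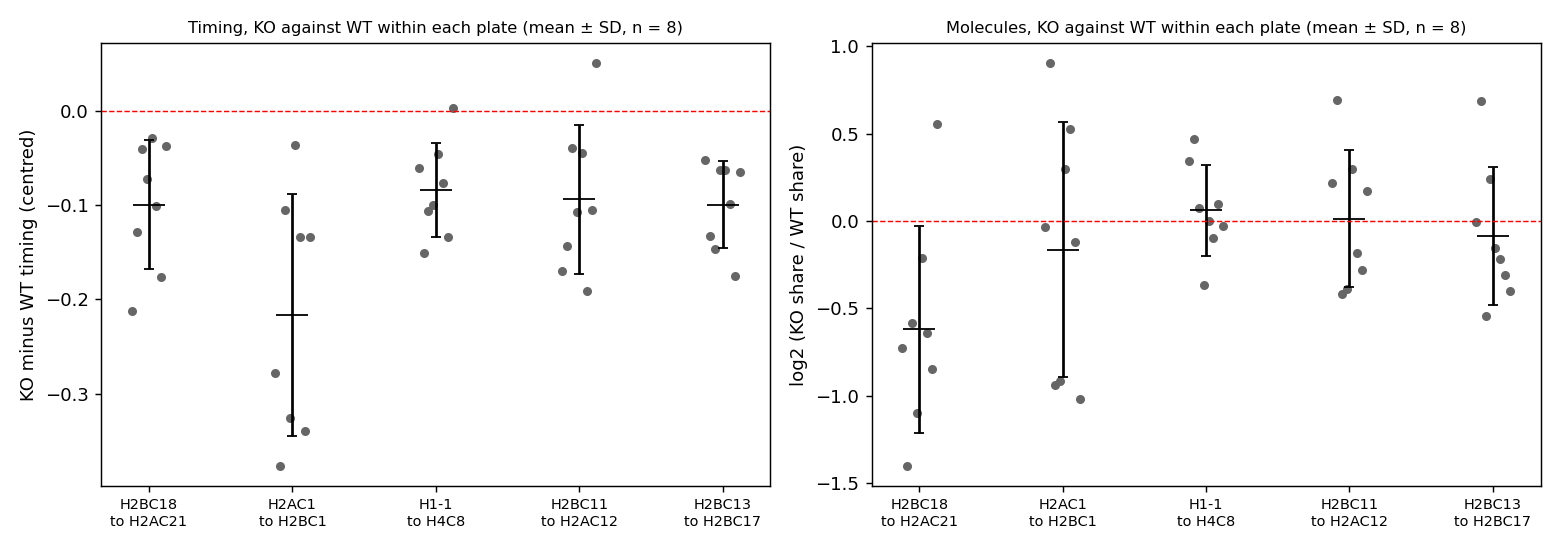
KO against WT within each plate for the 5 histone blocks: centred timing (left) and log2 of the share of molecules (right), 1 point per plate with the mean and SD of 8 plates. Timing differences lie mostly below 0, with means from -0.216 to -0.0836, while log2 ratios of molecules scatter around 0 for the chromosome 6 blocks.

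Over gene windows with at least 10 molecules in all 16 libraries of plate and genotype, limma tested 42 members among 3900. These 42 were all on chromosome 6, so the fit says nothing of the members on chromosome 1. It called 11 members earlier in KO and 0 later at an adjusted p under 0.05, where 10.9% of all windows tested were called earlier and 8.05% later. The 11 were H2AC1 (-0.216 ± 0.0431 SE) and H2BC1 (-0.215), H1-1 (-0.112) and H3C1 (-0.111), H2AC11 (-0.105) and H4C9 (-0.106), and H2BC13 (-0.135), H2AC13 (-0.135), H3C10 (-0.142), H2AC14 (-0.140) and H2BC14 (-0.143), so they fell into 4 groups of overlapping windows. With the plate as a block 7 remained called, those of the H2AC1 pair and the H2BC13 block. All 42 estimates were below 0, from -0.216 to -0.0526, with a median of -0.0982 against 0.0068 over all windows. Late windows in general moved the same way: among 882 other windows timed from 0.6 to 0.8 the median was -0.0288, 61.5% were below 0 and 17.5% were called earlier.

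With flanks of 250 kb, no block passed the test between genotypes for its difference from the flanks. KO minus WT of the difference from the flanks was 0.0392 ± 0.0676 for the H1-1 block, 0.0654 ± 0.0832 for the H2BC11 block, 0.0681 ± 0.0799 for the H2BC13 block, -0.0293 ± 0.128 for the H2AC1 pair and -0.0481 ± 0.0594 for chromosome 1 (exact permutation, adjusted p = 0.0977 to 0.539). With flanks of 500 kb the chromosome 1 difference was -0.0843 and passed (exact permutation, adjusted p = 0.0391), and with flanks of 100 kb that of the H1-1 block turned to -0.0221. The flanks of the H2BC13 block were at 0.605 in WT and 0.446 in KO, and those of the H1-1 block at 0.563 and 0.448, so flanks were also earlier in KO.

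The amount of labelled DNA at the chromosome 6 blocks did not differ between genotypes beyond the spread of plates. The H1-1 block took 15.2 ± 2.79 of 100000 autosomal molecules in WT and 15.9 ± 2.78 in KO, a log2 ratio of 0.06 ± 0.26 (SD, n = 8 plates, exact permutation, adjusted p = 0.693). The log2 ratio was 0.01 ± 0.39 for the H2BC11 block, -0.09 ± 0.39 for the H2BC13 block and -0.16 ± 0.73 for the H2AC1 pair (exact permutation, adjusted p = 0.922, 0.693 and 0.693). On chromosome 1 the block took 2.26, 4.60 and 5.73 per 100000 in WT (lowest, median and highest plate) and 2.07, 2.93 and 4.01 in KO. Its log2 ratio of -0.62 ± 0.59 was below 0 in 7 of 8 plates but did not pass the correction over 5 blocks (exact permutation, p = 0.0234, adjusted p = 0.117).

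limma voom called 0 of 66 member windows for molecules, where it called 0.164% of 16423 windows lower in KO and 0 higher. At an unadjusted p under 0.05 there were 9 members, and 9.99% of all windows. Member log2 ratios ran from -0.90 (H3C13) to 0.63 (H2BC4), with a median of -0.03 against -0.10 over all windows. Among the 134 bins of 20 kb tested in the chromosome 6 region limma voom called 0, where it called 0.00569% of all 122999 bins higher and 0.0797% lower. At an unadjusted p under 0.05 there were 9 of the 134 (6.72%), and 8.24% of all bins.

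Genes of the same pathway outside the clusters had earlier timings, given here without a test. Of 18 factors of histone transcription and mRNA processing, 16 were measured, with a median timing of 0.204, from E2F1 (0.149), a cell cycle transcription factor, to CCNE1 (0.519), the cyclin E with which CDK2 phosphorylates NPAT. Of 18 histone chaperones, 13 were measured, with a median of 0.208, from HIRA (0.160), which deposits H3.3, to NPM1 (0.452). Of 16 histone genes outside the clusters, 12 were measured, with a median of 0.209, from H3-3B (0.156) to H4C16 (0.558), a lone H4 gene on chromosome 12. All 3 medians lay near 0.231, the median over all 15894 gene windows, while the 60 measured cluster members had a median of 0.704. Between genotypes, limma called POU2F1, which encodes the octamer factor OCT1, earlier in KO by -0.198 among 2 factors tested (adjusted p = 0.000694). It called 0 of 2 chaperones, and of 4 lone histone genes H2AZ1 later by 0.249 (adjusted p = 0.000514). Over all 3900 windows tested, 10.9% were called earlier and 8.05% later. POU2F1 and H2AZ1 were named after their values were seen.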

How the data were processed

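Per the file headers, the authors deposited 1 line per sequenced fragment for each of 8 plates, with its cell, genotype, chromosome, base position and signed length; nothing in the files is a count or a scaled value. Positions are in GRCh38 by the submitters' processing notes. The aligner, mapping filters and duplicate removal: not given in the sources used here. Plates held 1746074 to 4181841 fragments, 91.1% to 92.8% on autosomes.

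Each fragment was taken as 1 molecule, and 6.35% to 8.81% shared cell, position and direction with another. Cells of at least 1000 autosomal molecules were ranked on axis 1 of a correspondence analysis over 500 kb bins (18.8% of the variation), with the gene-rich end as early. A gene window needed 10 molecules in every plate, or in every one of 16 libraries for the genotype fit. Depth sets the precision: a histone block held 628 to 3634 molecules in all.

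Block values were tested over the 8 plates by flipping signs in every possible way (an exact, two-sided permutation), with Benjamini-Hochberg adjustment over the blocks or pairs. Molecules summed per gene window or 20 kb bin were tested with limma voom (limma 3.58.1, R 4.3.3), scaled by the total, and timing per window with limma after centring each library on its median, all over the whole table. Flanks of 250 kb needed 200 molecules. The titles place both genotypes on each plate, so plates pair the libraries. The block tests between genotypes used this pairing. The main limma fits held genotype only, with the plate as a block as an alternative. Across gene windows, WT and KO deviations had a mean correlation of 0.0283 within a plate and -0.0041 between plates.

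Members and lists were chosen with earlier results of these data known, which gave histone genes as late. The comparison with flanks, of last with first genes and of bins was chosen after the values had been seen. Named genes are the first, last, earliest and latest member of each block, every H1 gene, members past a limma test, the genes next to each block or overlapping its end, the earliest and latest gene window of the chromosome 6 region and of each list, and the 5 windows outside chromosomes 1 and 6 most like the largest block. The extremes of each histone family and of the log2 ratios, the members of the latest bins, the near-identical copies on chromosome 1, and POU2F1 and H2AZ1 were named after their values were seen. Promoters and gene coordinates are from RefSeq (GRCh38.p14). Alternatives covered minimum molecules, shared positions, window sizes, cell weights, the order without chromosomes 1 and 6, scaling, the plate as a block, and each plate left out. The procedures were tested on simulated data. Proteins and the H2AC25 pair are not analysed here.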

Additional observations from a re-analysis of the deposited data

Results flagged for a closer look

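Among 50 groups of 8 plate values checked for a plate far from the others, 2 had one, where chance marks about 1 group in 20. The timing of the H2AC1 and H2BC1 pair minus that of the chromosome 1 block was 0.116 in plate 2, the lowest, with the nearest plate at 0.230 and the median at 0.263. Plate 2 also had the latest chromosome 1 block, at 0.519. The KO minus WT difference of the H2BC11 to H2AC12 block from its flanks was 0.249 in plate 8, the highest, with the nearest plate at 0.0995 and the median at 0.0512. Plate 8 had the fewest fragments, 1746074, and 28 WT molecules in that block. The part of depth in either value was not tested.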

How the results depend on the processing

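Of 566 recomputed values, 510 kept their direction and their side of the threshold; the cause of the other changes was not tested. In cells of at least 5000 molecules, H1-1 minus H2AC1 block timing was 0.0277 and H2BC13 minus H2BC11 0.0247, both now past the threshold, while H2BC11 minus H1-1 turned to -0.0028; the difference from flanks was 0.0486 on chromosome 1 and 0.0296 at the H2AC1 pair, both now past it. In 20 kb windows the chromosome 1 block was later than gene windows by 0.0161, and KO minus WT timing was -0.186 at the H2AC1 pair and -0.0891 at the H2BC11 block, all 3 no longer past it. In 200 kb windows H1-1 minus H2AC1 was -0.0094, H2BC11 minus H2AC1 0.0439, and the log2 ratio of molecules at the H2AC1 pair 0.0036. With shared positions counted once, H2BC11 minus H1-1 was 0.0346. With equal weight per cell, block differences of 0.0553 (H2BC11 minus H2AC1), 0.0249 (H2BC11 minus H1-1) and 0.0298 (H2BC13 minus H1-1) and KO minus WT timing of -0.0573, -0.0302, -0.0029 and -0.0502 for the chromosome 1, H1-1, H2BC11 and H2BC13 blocks no longer passed. Flanks of 500 kb gave 0.106 on chromosome 1, 0.133 at the H2AC1 pair and, for KO minus WT on chromosome 1, -0.0843; flanks of 100 kb turned KO minus WT at the H1-1 block to -0.0221. Leaving out each plate gave 0.0311 to 0.0469 for H2BC11 minus H1-1, 0.0247 to 0.0438 for H1-1 minus H2AC1, 0.0091 to 0.0223 for H2BC13 minus H2BC11, -0.115 to -0.0802 for KO minus WT timing at the H2BC11 block, -0.0835 to 0.0752 (-0.0154, -0.0268 and -0.0088 without plates 1, 5 and 8) for its log2 ratio of molecules, 0.0291 to 0.0655 for chromosome 1 and 0.0318 to 0.0484 for the H2AC1 pair against flanks, 0.0314 to 0.0605 for H2BC17 minus H2BC13 and -0.149 to -0.135 for H2AC21 minus H2BC18. Over all gene windows limma voom called 27 for molecules (16 in cells of at least 5000 molecules, 17 with median-ratio scaling, 41 with the plate as a replicate block, 9 to 21 without a plate), and limma 739 for timing (357 in cells of at least 5000 molecules, 56 with at least 20 molecules, 704 with the block); 20 kb bins gave 105 (195 with the block). The block changed no call of a member for molecules. KO minus WT at the blocks kept its calls when the pairing by plate was ignored (-0.0836 at the H1-1 block, exact permutation over 16 libraries, adjusted p = 0.00104). Depth limits the H2AC1 pair, with 30 to 71 WT and 15 to 51 KO molecules per plate, and the chromosome 1 block, with 17 to 138 and 23 to 56, and counts of molecules carry counting error on top of the spread of plates.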

Other observations

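The blocks were often labelled in the same cells. Among 914 cells of at least 5000 molecules, 189 had at least 3 molecules in the H2BC13 to H2BC17 block, and 81.0% of these also had at least 3 in the H1-1 to H4C8 block, against 28.7% of the other cells. Of the 109 cells labelled at the H2BC11 to H2AC12 block, 65.1% were labelled at the H2BC13 block, against 14.7% of the others. Of the 117 cells labelled at the chromosome 1 block, 31.6% were labelled at the H2BC13 block, against 19.1% of the others. Cells share depth and place in the order, so these shares carry no test.

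Over the 10 deciles of the order, pooled labelling of the H2BC11 and H2BC13 blocks correlated by r = 0.965, that of the H1-1 and H2BC13 blocks by 0.928, and that of the chromosome 1 and H2BC13 blocks by -0.352, as a description over points that share cells. Outside chromosomes 1 and 6, the gene windows whose course was most like that of the H1-1 block were CCDC39 (r = 0.980), OR8B4 (0.958), LOC124902894 (0.956), FAM149A (0.948) and PCTP (0.946), with timings of 0.707, 0.684, 0.698, 0.708 and 0.654.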
